A study of Homo sapiens with 6 samples.

Results

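Sialyltransferases of the ST3GAL and ST6GAL families are described here by 10 of the 22354 loci in a table of read counts: ST3GAL1 to ST3GAL6, ST6GAL1, ST6GALNAC2, ST6GALNAC4 and ST6GALNAC6. They were taken by gene symbol, and the set was chosen on the lower level of ST3GAL1 in the contrast reported here, so that the values of this contrast, intervals and counts of calls included, are a description of the members and no evidence for the choice, and no p-value is given for them. RNA was sequenced from 6 libraries of HTori-3.1 (spelled Htoris-3.1 in the sample labels), a line of normal human thyroid cells, 3 of them labelled control with the genotype wild type and 3 labelled BMAL1 knockout. The knockout cells had received Cas9 and an sgRNA against BMAL1 by virus, had been selected with puromycin and were grown from single clones, so a difference between clones and an effect of the knockout cannot be told apart. Both groups had been exposed to etoposide at 2 μM, an agent that damages DNA and induces senescence, for 12 h in the treatment label and 24 h in the protocol. Nothing in the labels says that the 3 libraries of a group came from separate cultures, so that p-values measure only the spread between these libraries, and an exact permutation test of 3 against 3 cannot give less than 0.1.

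Sialyltransferases sit in the Golgi apparatus and move sialic acid from CMP-sialic acid onto the ends of sugar chains. The ST3GAL enzymes attach it to the third carbon of a terminal galactose, the ST6GAL enzymes to the sixth carbon of galactose, and the ST6GALNAC enzymes to the sixth carbon of N-acetylgalactosamine. The chains they finish are the O-glycans on serine and threonine, the N-glycans on asparagine and the sugars of gangliosides, which are sphingolipids. In the thyroid, thyroglobulin carries sialylated N-glycans.

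The targeted gene was read first. BMAL1, a transcription factor of the circadian clock, was measured at 11.3, 12.2 and 14.6 TMM-normalized CPM in libraries labelled as control and at 17.9, 19.8 and 19.4 CPM in libraries labelled as BMAL1 knockout. Its transcript was thus higher in libraries labelled as BMAL1 knockout, against their label (log2 fold change 0.58, standard error, SE, 0.11, edgeR quasi-likelihood p of 0.0204 after Benjamini-Hochberg adjustment). BMAL1 shares 421 exon bases with ENSG00000290083 on the opposite strand, and whether the counting used strand is not stated. A Cas9 edit need not lower the transcript of its target. The study's methods describe a check of the knockout clones by western blot, but BMAL1 protein was not among these data. In 6 fits that each omitted 1 library the adjusted p of BMAL1 ranged from 0.0168 to 0.113, and BMAL1 was called in 2 of them, when control replicate 3 or knockout replicate 1 was omitted. All directions below are those of libraries labelled as BMAL1 knockout over libraries labelled as control. Total counts were 26893063, 27029060 and 28513703 in libraries labelled as control and 43148059, 29860233 and 43563391 in libraries labelled as BMAL1 knockout. Of 14860 loci that passed the filter on low counts, edgeR called 161 higher and 212 lower (adjusted p under 0.05). Scaling by library size alone gave 185 higher and 155 lower. Leaving out 1 library changed the number of loci called from 373 to 166 without control replicate 1, 113 without control replicate 2, 141 without control replicate 3, 633 without knockout replicate 1, 162 without knockout replicate 2 and 249 without knockout replicate 3.

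Of the 10 members, 9 passed the filter and 1, ST3GAL1, was called at an adjusted p under 0.05, beside 2.51% of all loci tested. It was lower, beside 1.43% of all loci called lower, and no member was called higher, beside 1.08% of all loci. No value of one group lay within the range of the other for ST3GAL1 and ST3GAL3, which is 2 of the 9, beside 23.3% of all loci tested. Since the set was chosen on this contrast, nothing is read from either count. Of the 9, 4 were higher and 5 lower, with a median log2 fold change of -0.02, where the median over all loci tested was 0.01.

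ST3GAL1 adds sialic acid to the core 1 disaccharide of O-glycans, galactose linked to N-acetylgalactosamine, and so caps this chain. The gene (ENSG00000008513.17) lies on the reverse strand of chromosome 8 of hg38, from 133454848 to 133571926, and none of its exon bases are shared with another gene in GENCODE v44. Its reads numbered 2102, 1995 and 2191 in libraries labelled as control and 1615, 1222 and 1975 in libraries labelled as BMAL1 knockout, where 2 of the libraries were sequenced more deeply. After TMM scaling ST3GAL1 was at 78.3, 74.6 and 78.2 CPM in libraries labelled as control and at 37.8, 40.0 and 44.6 CPM in libraries labelled as BMAL1 knockout. The lowest control library thus lay well above the highest library labelled BMAL1 knockout, and the libraries of each group lay close together. Mean and SD were 77.1 ± 2.13 CPM and 40.8 ± 3.44 CPM, each over 3 libraries (SD, n = 3). The log2 fold change of ST3GAL1 was -0.92 (SE 0.084, 95% interval -1.10 to -0.73), a change of -47.0% with an interval from -53.4% to -39.8%. Omitting any 1 library left the log2 fold change of ST3GAL1 between -0.99 and -0.87.

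ST3GAL2 acts on the same core 1 chain and on gangliosides. It lies on the reverse strand of chromosome 16 from 70375977 to 70439237 and shares 590 exon bases with a gene on the opposite strand, ENSG00000260111; whether the counting used strand is not stated. ST3GAL2 was at 32.7, 32.6 and 28.5 CPM in libraries labelled as control and at 23.9, 30.5 and 30.8 CPM in libraries labelled as BMAL1 knockout. The groups overlapped, and the lowest value came from knockout replicate 1 alone. The log2 fold change of ST3GAL2 was -0.14 (SE 0.11, 95% interval -0.39 to 0.10), and without knockout replicate 1 it was -0.03. The interval of ST3GAL2 reaches from a change of -23.4% to one of 7.54%. Between them, ST3GAL1 made up 72.6%, 71.7% and 75.3% of the summed level of ST3GAL1 and ST3GAL2, both per kilobase of exon, in libraries labelled as control. In libraries labelled as BMAL1 knockout this share was 63.7%, 59.3% and 61.6%. The mean share of ST3GAL1 was therefore 73.2% ± 1.85 (SD, n = 3) and 61.5% ± 2.24 (SD, n = 3), and ST3GAL1 was the larger of the pair in all 6 libraries.

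**Figure D1:**
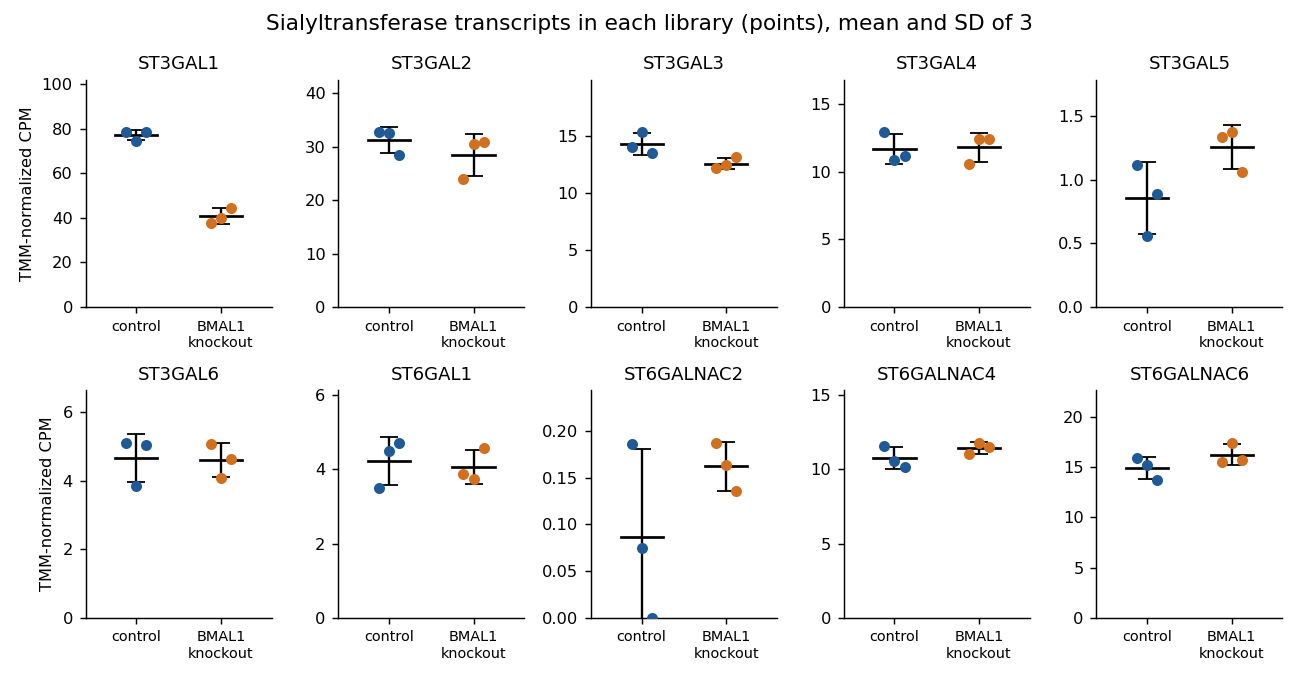
Level of each of the 10 sialyltransferases in the 3 libraries labelled control (blue points) and the 3 labelled BMAL1 knockout (orange points), in TMM-normalized CPM on linear axes that start at 0 and differ between panels; the long bar is the mean and the whiskers are 1 SD. ST3GAL1 lay between 37.8 and 44.6 CPM in libraries labelled as BMAL1 knockout and between 74.6 and 78.3 CPM in the others, while the points of ST3GAL2, ST3GAL4, ST3GAL5, ST3GAL6, ST6GAL1, ST6GALNAC2, ST6GALNAC4 and ST6GALNAC6 overlap between the groups.

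ST3GAL3, ST3GAL4 and ST3GAL6 act on galactose linked to N-acetylglucosamine, the end of N-glycan antennae and of longer O-glycans, and make the precursors of sialyl Lewis structures. ST3GAL3, on the forward strand of chromosome 1 from 43705824 to 43931165, was at 14.0, 15.3 and 13.5 CPM in libraries labelled as control and at 12.1, 12.4 and 13.1 CPM in libraries labelled as BMAL1 knockout. All 3 libraries labelled BMAL1 knockout lay below the others, but the gap between 13.1 and 13.5 CPM was smaller than the SD of the control libraries, 0.930 CPM. Its log2 fold change was -0.19 (SE 0.10, 95% interval -0.41 to 0.04). ST3GAL3 shares 1951 exon bases with ENSG00000284989 on the same strand, a locus with 0 counts in every library.

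ST3GAL4, on the forward strand of chromosome 11 from 126355640 to 126440344, was at 12.9, 10.9 and 11.2 CPM in libraries labelled as control and at 10.6, 12.4 and 12.4 CPM in libraries labelled as BMAL1 knockout. The groups overlapped over nearly their whole range. The log2 fold change of ST3GAL4 was 0.02 (SE 0.12, 95% interval -0.24 to 0.28), and its sign changed in 5 of 15 alternative analyses. ST3GAL6, on the forward strand of chromosome 3 from 98732236 to 98821201, was at 5.11, 3.85 and 5.03 CPM and at 5.08, 4.09 and 4.63 CPM, so that its groups also overlapped. Its log2 fold change was -0.02 (SE 0.16, 95% interval -0.38 to 0.34), with the other sign in 4 of 15 alternatives, among them scaling by library size alone. ST3GAL6 shares 235 exon bases with DCBLD2 on the opposite strand, which held 12354 counts or more in each library, so the values of ST3GAL6 are uncertain if the counting ignored strand.

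ST3GAL5 makes the ganglioside GM3 from lactosylceramide and so opens the ganglioside pathway. It lies on the reverse strand of chromosome 2 from 85837120 to 85905199. Its reads numbered 30, 15 and 25 in libraries labelled as control and 57, 42 and 47 in libraries labelled as BMAL1 knockout, or 1.12, 0.561 and 0.893 CPM against 1.34, 1.38 and 1.06 CPM. The highest control library lay within the range of libraries labelled as BMAL1 knockout. The log2 fold change of ST3GAL5 was 0.54 (SE 0.30), and its 95% interval from -0.11 to 1.20 was the widest of the 9 members. It was 0.78 without control replicate 1 and 0.32 without control replicate 2. At this depth neither a level near that of the controls nor a fold change of 2 could be told from the estimate.

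ST6GAL1, the enzyme that ends N-glycans with sialic acid on the sixth carbon of galactose, lies on the forward strand of chromosome 3 from 186930325 to 187078553. It was at 3.50, 4.49 and 4.71 CPM in libraries labelled as control and at 3.87, 3.73 and 4.58 CPM in libraries labelled as BMAL1 knockout. The groups overlapped, with a log2 fold change of -0.06 (SE 0.17, 95% interval -0.43 to 0.31), whose sign changed without control replicate 3.

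The 3 ST6GALNAC members act on O-glycans or gangliosides. ST6GALNAC2, which sialylates N-acetylgalactosamine of O-glycans, had 5, 2 and 0 counts in libraries labelled as control and 8, 5 and 6 in libraries labelled as BMAL1 knockout, and it was not tested. It lies on the reverse strand of chromosome 17 from 76565377 to 76586956 and shares 1196 bases, 39.8% of its exon bases, with ENSG00000284526 on the same strand. That locus held between 1967 and 3531 counts in each library, so the few reads listed for ST6GALNAC2 may depend on how reads in the shared bases were assigned, which is not stated.

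ST6GALNAC4, which adds a further sialic acid to sialylated core 1, the product of ST3GAL1 and ST3GAL2, was at 11.6, 10.6 and 10.1 CPM in libraries labelled as control and at 11.0, 11.8 and 11.5 CPM in libraries labelled as BMAL1 knockout. The log2 fold change of ST6GALNAC4 was 0.09 (SE 0.11, 95% interval -0.15 to 0.33). ST6GALNAC6, which acts on gangliosides, was at 15.9, 15.2 and 13.7 CPM and at 15.6, 17.4 and 15.7 CPM, with a log2 fold change of 0.12 (SE 0.10, 95% interval -0.10 to 0.34). Both sets of values overlapped between the groups. With 1 library left out the log2 fold change ranged from 0.05 to 0.14 for ST6GALNAC4 and from 0.07 to 0.16 for ST6GALNAC6. The genes are neighbours on the reverse strand of chromosome 9, ST6GALNAC6 from 127885321 to 127905408 and ST6GALNAC4 from 127907886 to 127917041. ST6GALNAC6 shares 2494 bases, 47.0% of its exon bases, with ENSG00000257524 on the same strand, which held 4 to 38 counts in each library, so its values and its level per kilobase may depend on how shared reads were assigned.

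**Figure D2:**
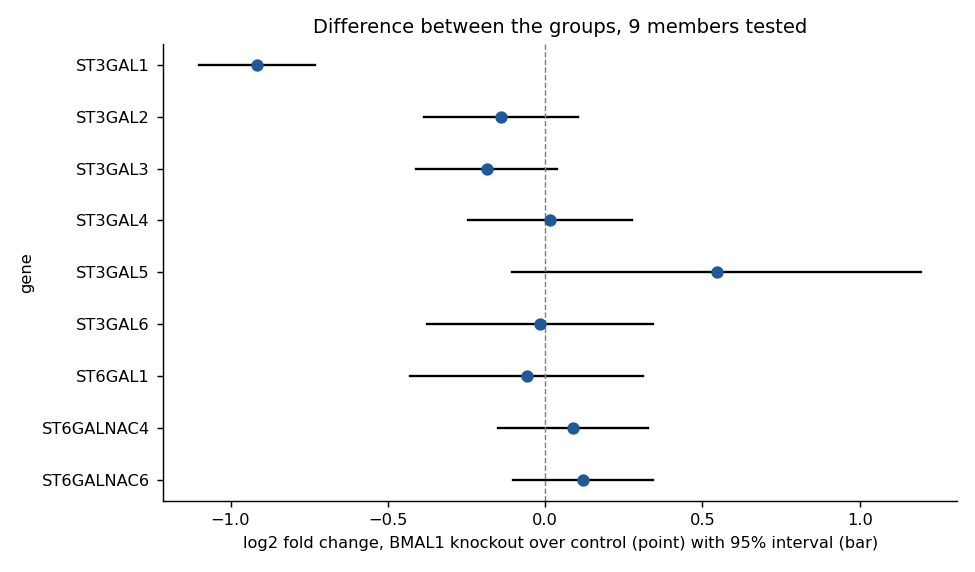
Log2 fold change of the 9 members that passed the filter on low counts (points), libraries labelled BMAL1 knockout over libraries labelled as control, with 95% intervals from edgeR (bars) on the horizontal axis and 1 gene per row. The interval of ST3GAL1, from -1.10 to -0.73, lies below those of the other 8 members, and each of those 8 intervals includes 0; the set was chosen on ST3GAL1.

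BMAL1 binds DNA with its partner CLOCK at the E-box, CACGTG, a form of the wider motif CANNTG. To show which of these letters the members carry, promoters from RefSeq (GRCh38.p14), 250 bases before to 50 after each start site, were searched for both; both motifs read the same on either strand, and each CACGTG is also a CANNTG. The table held 18 promoters for 7 members, ST3GAL3, ST3GAL4, ST3GAL5, ST3GAL6, ST6GAL1, ST6GALNAC4 and ST6GALNAC6, and none for ST3GAL1, ST3GAL2 and ST6GALNAC2. CACGTG was found in 1 of the 18, a promoter of ST3GAL4 at chr11:126355762-126356061, and in 7.26% of all 35116 promoters in the table. CANNTG was found in 10 of the 18 and in 68.7% of all promoters. Some promoters of ST3GAL5 overlap each other, so the same letters can be counted more than once. The bases before the start site are shown for a promoter of ST3GAL6 (chr3:98733206-98733455, forward strand), with its CANNTG in capitals, and for a promoter of ST6GALNAC4 (chr9:127917042-127917291, reverse strand), which holds none; neither stretch overlaps an annotated exon. A match is a run of letters and not evidence of binding.
ST3GAL6: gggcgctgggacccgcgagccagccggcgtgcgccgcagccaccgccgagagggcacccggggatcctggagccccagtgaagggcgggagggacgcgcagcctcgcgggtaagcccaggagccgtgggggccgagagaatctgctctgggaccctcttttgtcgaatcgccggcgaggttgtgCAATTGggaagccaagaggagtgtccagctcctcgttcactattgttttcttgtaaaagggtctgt
ST6GALNAC4: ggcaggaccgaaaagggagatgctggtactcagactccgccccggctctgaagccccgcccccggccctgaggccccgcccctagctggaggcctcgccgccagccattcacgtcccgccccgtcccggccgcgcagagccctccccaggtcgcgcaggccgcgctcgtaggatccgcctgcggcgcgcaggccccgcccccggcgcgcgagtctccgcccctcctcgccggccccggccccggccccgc

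The levels of the members in libraries labelled as control are one side of the contrast on which the set was chosen. Their order is therefore given as a description only. Per kilobase of exon, ST3GAL1 had the highest level of the 10, 8.77 ± 0.243 CPM per kilobase (SD, n = 3), and ST6GALNAC4 followed at 4.09 ± 0.282, a ratio of 2.14 between them. ST3GAL2 at 3.21 ± 0.248 and ST6GALNAC6 at 2.81 ± 0.205 CPM per kilobase overlapped in their ranges and were not told apart, and ST3GAL4 came below both at 1.96 ± 0.186. ST3GAL6 at 0.740 ± 0.112 and ST3GAL3 at 0.733 ± 0.0478 CPM per kilobase were again not told apart. ST6GAL1 stood at 0.380 ± 0.0577 CPM per kilobase, and ST3GAL5 at 0.0526 ± 0.0172 and ST6GALNAC2 at 0.0290 ± 0.0312 overlapped at the bottom. The ranges of the other neighbours in this order did not overlap. ST3GAL1 also came first, ST6GAL1 eighth, ST3GAL5 ninth and ST6GALNAC2 last when no length or the longest transcript was used as the length, while ST3GAL2, ST3GAL3, ST3GAL4, ST3GAL6, ST6GALNAC4 and ST6GALNAC6 changed places among themselves. In libraries labelled as BMAL1 knockout ST3GAL1 was at 4.64 ± 0.391 CPM per kilobase and ST6GALNAC4 at 4.35 ± 0.147, and their ranges overlapped. This depends on the length used: with no length ST3GAL1 stayed first and apart from ST3GAL2, at 37.8 to 44.6 against 23.9 to 30.8 CPM, and with the longest transcript it came at 5.87 CPM per kilobase, below ST6GALNAC4 at 6.71 and not told apart from ST6GALNAC6 at 6.63.

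**Figure D3:**
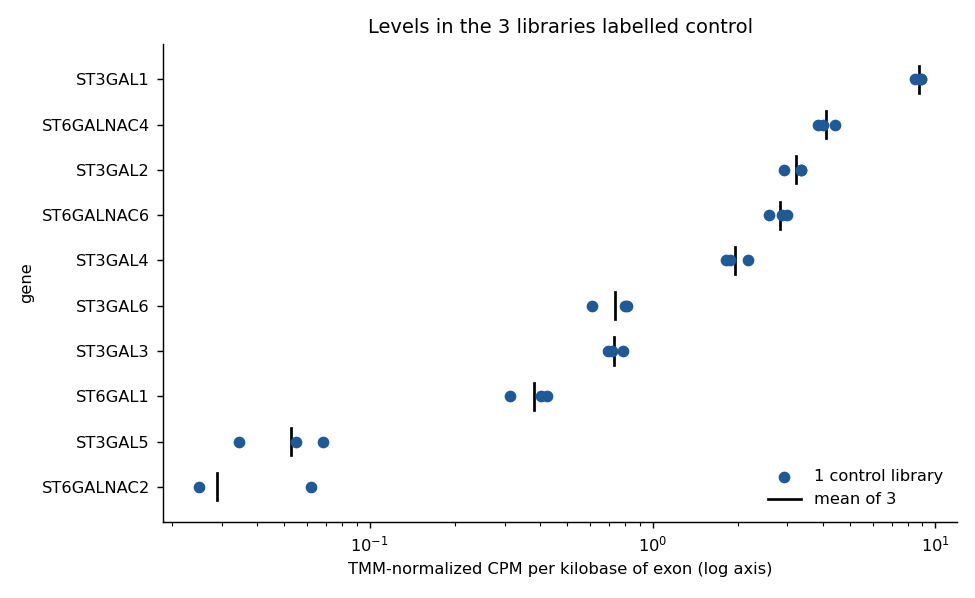
Level of the 10 members in the 3 libraries labelled control, in TMM-normalized CPM per kilobase of exon on a log axis, in descending order of the mean (bar); each point is 1 library. ST3GAL1 stands at 8.77 CPM per kilobase, above ST6GALNAC4 at 4.09; the control library of ST6GALNAC2 with 0 counts cannot be drawn on a log axis.

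Of 10 other sialyltransferase genes, ST6GAL2, ST6GALNAC3, ST8SIA1, ST8SIA5 and ST8SIA6 passed the filter and none was called (edgeR adjusted p; 0 also at an unadjusted p under 0.05, with DESeq2 and with limma-voom). ST6GAL2, the second enzyme of the ST6GAL kind, had the highest level among them, 1.02 CPM per kilobase in libraries labelled as control against 0.380 for ST6GAL1, and a log2 fold change of 0.12 (SE 0.16). ST6GALNAC3 was at 0.293 CPM per kilobase. ST8SIA5, which adds sialic acid to sialic acid on gangliosides, was at 1.12, 1.16 and 1.07 CPM in libraries labelled as control and at 0.586, 0.753 and 0.880 CPM in libraries labelled as BMAL1 knockout, without overlap, but its adjusted p was 0.307 (edgeR) with a log2 fold change of -0.59 (SE 0.28). ST6GALNAC5 and ST8SIA4 had 8 counts or fewer in each library, and ST6GALNAC1, ST8SIA2 and ST8SIA3 had 0 counts in all 6 libraries.

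The genes that feed and surround these enzymes were described by 8 lists, that of the other sialyltransferases among them, of 103 genes in the table. Of these, 71 were tested, 33 of them higher and 38 lower with a median log2 fold change of -0.02. At an adjusted p under 0.05, 0 were higher and 2 lower, which is 2.82% of those tested beside 2.51% of all loci. Of the genes named from these lists, ST8SIA1, ST8SIA5, NANS, SLC35A1, CTSA, GCNT1, GALNT2, MGAT4B, MGAT2, B3GALNT1, B4GALNT1, FUT11, FUT4 and CD22 share annotated exon bases with another gene, and their values are uncertain to the extent that shared reads were counted for them.

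Sialic acid is made and activated by GNE, NANS, NANP and CMAS and carried into the Golgi apparatus by SLC35A1. All 5 were tested and none was called (edgeR; 1 at an unadjusted p under 0.05, 0 with DESeq2 and with limma-voom). The most abundant per kilobase were CMAS, which forms CMP-sialic acid, with a log2 fold change of -0.06 (SE 0.091), and NANS, with -0.14 (SE 0.085). NANP, the phosphatase before CMAS, was at 22.8, 24.7 and 31.2 CPM in libraries labelled as control and at 33.8, 32.7 and 36.4 CPM in libraries labelled as BMAL1 knockout, with a log2 fold change of 0.38 and an adjusted p of 0.107 (edgeR). Among 10 genes of sialic acid removal and recycling, 7 were tested and none was called (edgeR; 0 at an unadjusted p under 0.05 and with the other tools). CTSA, the protective protein of the lysosomal sialidase, had a log2 fold change of -0.02 (SE 0.075), and the sialidase NEU1 had 0.12 (SE 0.079).

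ST3GAL1 and ST3GAL2 use O-glycans that GALNT enzymes start and C1GALT1 with its chaperone C1GALT1C1 extends to core 1. Of 19 genes of O-glycan core synthesis, 16 were tested, 7 higher and 9 lower, and none was called (edgeR; 0 at an unadjusted p under 0.05 and with the other tools). C1GALT1 was at 39.8, 40.8 and 45.0 CPM in libraries labelled as control and at 48.2, 39.2 and 37.3 CPM in libraries labelled as BMAL1 knockout, and its log2 fold change of -0.01 had a 95% interval from -0.24 to 0.22. C1GALT1C1 had a log2 fold change of 0.00 (SE 0.13), and GCNT1, which branches core 1 into core 2 and competes with ST3GAL1 for the same chain, had -0.05 (SE 0.091). The most abundant starters per kilobase were GALNT2, with -0.02 (SE 0.11), and GALNT1, with 0.05 (SE 0.11).

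The N-glycan list supplies the galactose ends on which ST3GAL3, ST3GAL4, ST3GAL6 and ST6GAL1 act. All 16 genes were tested, 5 higher and 11 lower, and none was called with edgeR under TMM scaling or with limma-voom (3 at an unadjusted p under 0.05). DESeq2 called 2, B3GNT2 and MGAT5, and edgeR with scaling by library size alone called B3GNT2 (adjusted p = 0.0491). MGAT4B and MGAT2, which add antennae, were the most abundant per kilobase, with log2 fold changes of -0.18 (SE 0.088) and -0.19 (SE 0.089). MGAT5, which adds another antenna, was at 96.4, 97.4 and 99.1 CPM in libraries labelled as control and at 70.5, 86.6 and 82.8 CPM in libraries labelled as BMAL1 knockout, with a log2 fold change of -0.29 and an adjusted p of 0.109 (edgeR). B3GNT2, which extends chains with N-acetylglucosamine, had a log2 fold change of 0.34 and an adjusted p of 0.0643 (edgeR). MGAT3 had the highest log2 fold change of the list, 0.80 (SE 0.30), with an adjusted p of 0.194 (edgeR). Without knockout replicate 1 it was 1.08, with an adjusted p of 0.0275 (edgeR).

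Glycosphingolipids bear the substrates of ST3GAL5, ST3GAL2 and ST6GALNAC6. All 12 genes of this list in the table were tested, 4 higher and 8 lower, and none was called with edgeR or limma-voom (3 at an unadjusted p under 0.05), while DESeq2 called B4GALT5. B4GALT5, which makes the lactosylceramide that ST3GAL5 uses, was at 164, 160 and 170 CPM in libraries labelled as control and at 121, 143 and 137 CPM in libraries labelled as BMAL1 knockout, with a log2 fold change of -0.30 (SE 0.080) and an adjusted p of 0.0759 (edgeR). UGCG, one step earlier, had a log2 fold change of -0.14 (SE 0.084). B3GALNT1, which makes globoside and had the highest log2 fold change of the list, was at 0.39 with an adjusted p of 0.0746, and B4GALNT1, which competes for GM3, at 0.30 with an adjusted p of 0.128 (both edgeR). Of 10 fucosyltransferases, 5 were tested and none was called (edgeR; 1 at an unadjusted p under 0.05, 0 with the other tools), with log2 fold changes of 0.27 (SE 0.11) for FUT11 and 0.09 (SE 0.13) for FUT4, the most abundant per kilobase.

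Both called genes, 2.82% of the 71 list genes tested beside 2.51% of all loci, were lectins, proteins that bind sugars. Of 21 lectin genes, 5 were tested, among them CD22 and SIGLEC15, which recognise sialic acid and are known from B cells and from osteoclasts. CD22 was at 5.52, 3.93 and 3.86 CPM in libraries labelled as control and at 2.08, 2.78 and 1.51 CPM in libraries labelled as BMAL1 knockout. It was lower in all 3, by a log2 fold change of -1.07 (SE 0.24, edgeR quasi-likelihood p of 0.0371 after Benjamini-Hochberg adjustment). SIGLEC15 was at 1.53, 1.61 and 1.14 CPM and at 0.562, 0.688 and 0.609 CPM, again lower in all 3, with a log2 fold change of -1.20 (SE 0.28, adjusted p = 0.0431 from the same edgeR test). With 1 library left out the adjusted p of CD22 lay between 0.0210 and 0.135, under 0.05 only without knockout replicate 2, and that of SIGLEC15 lay between 0.0708 and 0.174. DESeq2 called CD22 but not SIGLEC15 (adjusted p = 0.0685), and limma-voom called both; with library size alone, in thinned libraries and with a replicate block the adjusted p of SIGLEC15 was 0.0508, 0.0671 and 0.0781, and in thinned libraries that of CD22 was 0.0517. The log2 fold changes with 1 library left out were -1.30 to -0.87 for CD22 and -1.34 to -1.11 for SIGLEC15. LGALS1 and LGALS3, galectins that bind galactose, were the most abundant lectins per kilobase, with log2 fold changes of 0.12 (SE 0.083) and -0.11 (SE 0.11).

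**Figure D4:**
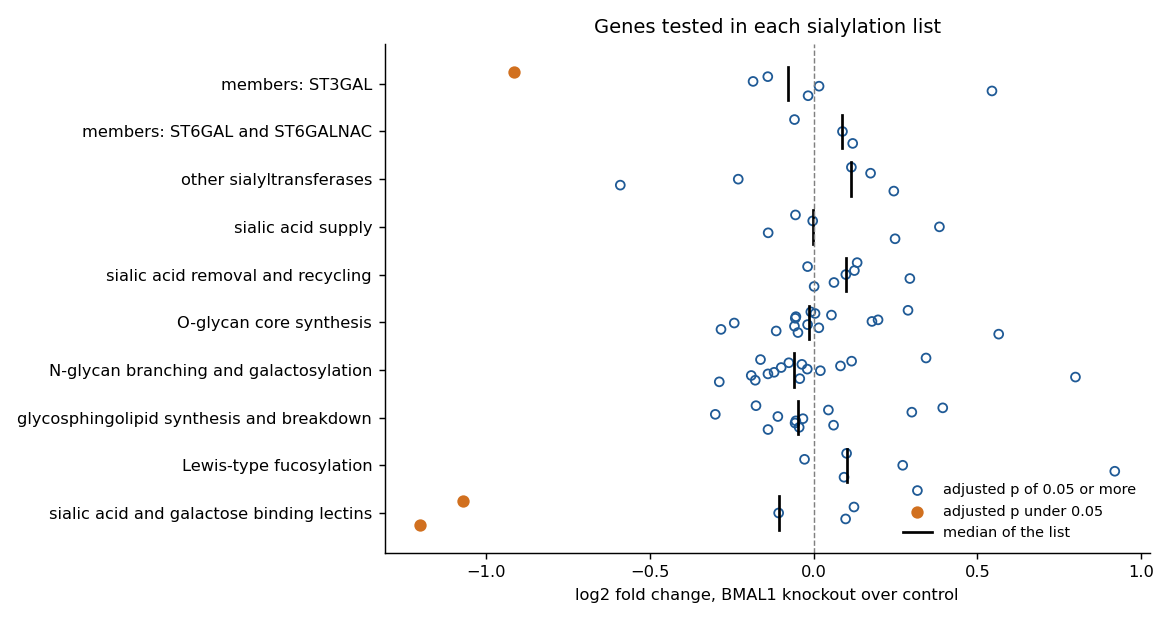
Log2 fold change of each tested gene (horizontal axis) in the 2 groups of members and the 8 lists of related genes (rows), libraries labelled BMAL1 knockout over libraries labelled as control; filled orange points have an edgeR adjusted p under 0.05, open points do not, and the bar is the median of the list. The filled points are ST3GAL1, on which the set was chosen, and the lectins CD22 and SIGLEC15 at -1.07 and -1.20.

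Markers of cell types were read beside these values. Of the thyroid follicular markers, PAX8 and FOXE1 were expressed, at 133 and 110 CPM on average for PAX8 and 48.0 and 40.0 CPM for FOXE1 in libraries labelled as control and as BMAL1 knockout (log2 fold changes -0.28 and -0.26, edgeR adjusted p = 0.259 and 0.139). TG, TSHR and SLC5A5 were below 0.5 CPM in every library, and SLC26A4 was at most at 0.773 CPM. NKX2-1, which shares exon bases with SFTA3 on the same strand, and IYD had 0 counts. Transcripts that mark hormone-making thyroid cells were thus low or not detected. Of 6 epithelial markers, KRT8 was the most abundant; their sum was 2990, 3044 and 2897 CPM against 2540, 2482 and 2563 CPM, with KRT8 at a log2 fold change of -0.28 (edgeR adjusted p = 0.0507), KRT7 and KRT19 at log2 fold changes of 0.10 and 0.23, and EPCAM, with at most 17 counts in a library, at 1.57 (95% interval -0.34 to 3.48). CDH1, the other epithelial marker, did not pass the filter on low counts. Of the 5 tested, edgeR called 1 and DESeq2 and limma-voom 2 each. KRT18 was called by edgeR, with a log2 fold change of -0.50 (SE 0.076, edgeR adjusted p = 0.00583). KRT18 shares exon bases with KRT8 on the opposite strand. Without control replicate 2 the adjusted p of KRT18 was 0.0524, and in the other 5 fits with a library left out it was called. Of the immune markers, CD3E had 0 counts and PTPRC was the most abundant. PTPRC was at 6.41, 6.24 and 6.53 CPM in libraries labelled as control and at 2.51, 1.97 and 2.60 CPM in libraries labelled as BMAL1 knockout, with a log2 fold change of -1.43 (SE 0.16, edgeR adjusted p = 0.00127). CD14, the other immune marker tested, was at 0.261, 0.337 and 0.643 CPM and at 0.375, 1.05 and 1.08 CPM, with a log2 fold change of 0.99 and an adjusted p of 0.318 (edgeR). Of the fibroblast list, COL1A1 held nearly all of the sum of 718 to 989 CPM over the 6 libraries, while COL1A2 and COL3A1 had 2 counts and 1 count in a single library and DCN and LUM had 0. The 2 fibroblast genes tested had log2 fold changes of -0.001 and 0.14, and edgeR called 0 of them. The endothelial list summed to 2.05, 1.83 and 2.21 CPM in libraries labelled as control and to 1.34, 1.24 and 1.72 CPM in libraries labelled as BMAL1 knockout. Its tested genes, VWF and CDH5, had log2 fold changes of -0.26 and -0.56 (edgeR adjusted p = 0.694 and 0.561). Among C cell and parathyroid markers CALCA and PTH had 0 counts. These are bulk libraries of a cell line, in which fewer cells expressing a marker and less of its RNA per cell cannot be told apart. The part of these markers in the values of the sialyltransferases was not tested.

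Genes around each member were read in chromosomal order, 10 tested loci on either side, so that the stretches differ in length, from 125430358 to 142403182 for ST3GAL1 and from 85354394 to 86808396 for ST3GAL5. Of all loci tested, 7762 were higher and 7098 lower. Around ST3GAL1, 15 of 20 were lower and 5 higher, with a median log2 fold change of -0.16; 1 was called, ASAP1, with -0.48 (SE 0.074, edgeR adjusted p = 0.00644). The log2 fold change of ST3GAL1, on which the set was chosen, was -0.92, and the lowest of the 20 was -0.48. Around ST3GAL5, 18 of 20 were higher with a median log2 fold change of 0.20, and 2 were called, VAMP8 and RMND5A, with log2 fold changes of 0.56 and 0.33 (edgeR adjusted p = 0.0345 and 0.0497), both named after their values were seen. With a library left out the adjusted p of VAMP8 lay between 0.0443 and 0.0968, under 0.05 only without knockout replicate 1 or 3, and that of RMND5A between 0.0272 and 0.2, under 0.05 only without knockout replicate 1. Around the other members the number of called neighbours was 3 for ST6GALNAC6, 2 for ST6GALNAC4, both of them among those 3 since 18 of the 20 loci are the same, 2 for ST6GALNAC2, 1 each for ST3GAL3, ST3GAL4 and ST6GAL1, and 0 for ST3GAL2 and ST3GAL6 (edgeR), where 2.51% of all loci tested were called. The median was -0.00 around ST3GAL2, -0.06 around ST3GAL3, 0.01 around ST3GAL4 and ST3GAL6, 0.06 around ST6GAL1, and -0.05 around ST6GALNAC2, ST6GALNAC4 and ST6GALNAC6. With a library left out the median ranged from -0.20 to -0.13 around ST3GAL1 and from 0.18 to 0.23 around ST3GAL5, while it changed sign around ST3GAL2 (-0.05 to 0.00), ST3GAL4 (-0.04 to 0.03), ST3GAL6 (-0.09 to 0.08), ST6GALNAC4 (-0.11 to 0.01) and ST6GALNAC6 (-0.11 to 0.00). It ranged from -0.09 to -0.05 around ST3GAL3, from 0.05 to 0.10 around ST6GAL1 and from -0.08 to -0.01 around ST6GALNAC2. ST3GAL1 and ST3GAL5, the members with the lowest and the highest estimate, thus had neighbours whose medians lay on the same side of 0 and farthest from it; the part of the neighbourhood in their values was not tested.

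**Figure D5:**
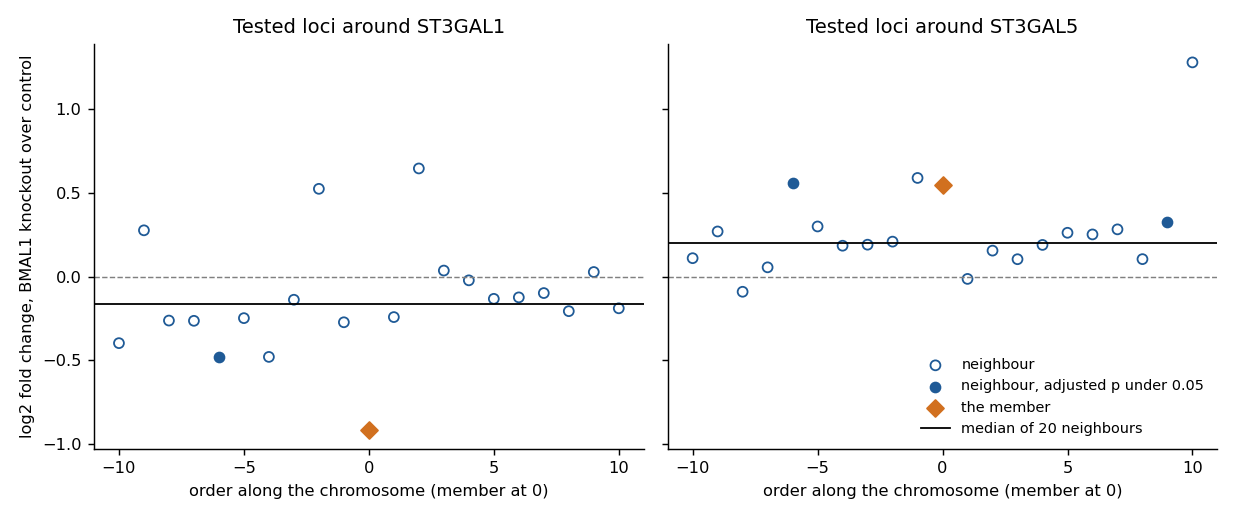
Log2 fold change (vertical axis) of the 10 tested loci on either side of ST3GAL1 and of ST3GAL5, in order along the chromosome (horizontal axis), with the member itself as an orange diamond at 0 and the median of its 20 neighbours as a line. The median is -0.16 around ST3GAL1, which lies below all of its neighbours, and 0.20 around ST3GAL5.

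Among 12358 named loci with a mean of at least 1 CPM, those whose log2 CPM followed ST3GAL1 most closely over the 6 libraries were MARCHF4, SLC2A1, LAMB1, CDH4 and MRPL44, with Pearson's r of 0.998, 0.997, 0.997, 0.996 and 0.996. The 6 points fall into the 2 groups, so that r mainly follows the difference between them. Since the 5 were picked for following ST3GAL1, a difference between the groups comes with the choice, and r and the fold changes are given as a description without a test. SLC2A1, a glucose transporter, was at 136, 126 and 131 CPM in libraries labelled as control and at 84.3, 86.1 and 91.8 CPM in libraries labelled as BMAL1 knockout, a log2 fold change of -0.58. CDH4, a cadherin, went from 16.1 ± 0.324 to 8.07 ± 1.00 CPM (SD, n = 3 each), a log2 fold change of -0.99 and the nearest in size to that of ST3GAL1. The log2 fold changes of MARCHF4, a ubiquitin ligase, LAMB1, a laminin chain, and MRPL44, a protein of the mitochondrial ribosome, were -0.52, -0.35 and -0.26.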

How the data were processed

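RNA-seq of 6 libraries, 3 labelled control and 3 labelled BMAL1 knockout, was analysed. The authors deposited whole-number read counts per gene, not normalized, from reads mapped to hg38; the submitters' processing notes name fastp 0.20.1 and HISAT2 2.0.4. The annotation and the strandedness of counting are not given in the sources used here. Members and gene lists were chosen with earlier results of these data known.

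Names were matched to GENCODE v44 (20018 of 22354 loci) for positions, exon lengths and overlaps. Counts were fitted in R 4.3.3 with edgeR 4.0.16 (default low-count filter, TMM scaling, robust quasi-likelihood fit without covariates, 2-sided test), and p-values were adjusted over 14860 loci as Benjamini and Hochberg proposed; its default quasi-likelihood method was kept, and its newer method, tried after seeing the data, is among the alternatives. Others were DESeq2 1.42.0, limma-voom (limma 3.58.1), other scaling, filters, thinning, a replicate block and leaving out each library. The edgeR, DESeq2 and limma steps were tested on simulated data. Within groups, counts of 2 libraries differed by 5.37 to 46.5 times the variance of counting alone over all loci; the highest values, 31.6 and 46.5, were those of the pairs with knockout replicate 1. CPM per kilobase used the union of annotated exons.

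Genes named were BMAL1, the members, all other sialyltransferases, from each other list those with an adjusted p under 0.05 (at most 8) and the 2 most abundant per kilobase, the 5 loci most like ST3GAL1, and called loci among its 20 neighbours. C1GALT1, C1GALT1C1, GCNT1, NANP, MGAT3, MGAT5, B3GNT2, B3GALNT1, B4GALNT1 and the markers singled out were added after their values were seen.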

Additional observations from a re-analysis of the deposited data

How the results depend on the processing

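ST3GAL1 was lower in all 15 alternatives, with log2 fold changes between -0.99 and -0.87. The number of members called at an adjusted p under 0.05 stayed at 1 in each of them. At a fold change over 2 with an unadjusted p under 0.01, applied to the members after seeing the data, it was 0. The fold of ST3GAL1 was 1.89. Among all loci, 373 of 14860 were called in the main fit, 113 of 15131 without control replicate 2 and 633 of 15045 without knockout replicate 1. Since the set was chosen on ST3GAL1 in this contrast, nothing is read from the count of members. ST3GAL2, ST3GAL3, ST3GAL5, ST6GALNAC4 and ST6GALNAC6 kept their sign in 15 of 15, ST6GAL1 in 14, ST3GAL6 in 11 and ST3GAL4 in 10. With a library left out, signs were also read for the 2 most abundant genes of each list and the called ones. Among these, CMAS, CTSA, GALNT2, GALNT1 and FUT4 changed sign. Their log2 fold changes ranged from -0.16 to 0.02, -0.05 to 0.03, -0.11 to 0.10, -0.11 to 0.13 and -0.03 to 0.17, in that order. Signs of other genes of the lists, C1GALT1, C1GALT1C1 and GCNT1 among them, were not read in this way. The 373 loci called became 634 with DESeq2 and its own filter (19440 loci tested, not 14860), so that tool and filter changed together, and 142 at a fold change over 2 with an unadjusted p under 0.01, and between 113 and 633 with a library left out, where fewer libraries were used. edgeR's newer quasi-likelihood method, added after seeing the data, called 352 loci. The 2 pathway genes called became 4 with DESeq2, of 92 tested rather than 71 (CD22, B4GALT5, B3GNT2 and MGAT5), 0 in thinned libraries and between 0 and 2 with a library left out; the cause was not tested. With library size alone the 2 were CD22 and B3GNT2 (adjusted p = 0.0491), SIGLEC15 being at 0.0508, and without control replicate 3 NANP was called (0.0453). Without knockout replicate 1 the 2 were B4GALNT1 and MGAT3, neither of them called with all libraries.

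With the replicate block 277 loci and 1 pathway gene, CD22, were called. Deviations of same-numbered libraries from their group means correlated at -0.0896, -0.0517 and -0.00471. These values show no shift shared by same-numbered libraries, and they cannot show whether those libraries were prepared together. Of 45 pairs of members, 39 kept their order of level without a length correction and 42 with the longest transcript as the length; both follow from the lengths used. The difference in the share of ST3GAL1, -11.7 percentage points, lay between -12.8 and -10.5 with a library left out, an alternative added after seeing the data. ST3GAL5 and ST6GALNAC2 had too few reads for a firm estimate.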
